A study of Mus musculus with 16 samples.

Results

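The comparison described here was between CD11b+ spleen cells of mice given CTLA4-Ig together with EPO and those of mice given CTLA4-Ig without EPO. It covered 8 of the 16 mice of the series, 4 in each group, chosen by their sample names, and all 734 genes of the deposited table. Wild type C57BL/6 (B6) mice received 20000000 BALB/c spleen cells and, on day 2, CTLA4-Ig at 150 μg. The CTLA4-Ig/EPO mice also received recombinant EPO (epoetin alfa, 5000 U/kg daily), and on day 7 the splenic CD11b+ cells were positively selected. The cells were injected i.p. and were depleted of T cells according to the sample labels, whereas the study's text gives an i.v. route and no depletion. That text also describes the cells as lacking CD11c, which the labels do not state. The series also holds 4 naive mice and 4 mice given BALB/c cells alone, which enter the estimate of each gene's spread. The letter codes that the protocol in the labels gives these other groups are swapped against those of the samples themselves, so which is which rests on the titles and treatment labels. The codes of the CTLA4-Ig and CTLA4-Ig/EPO mice match. No group received EPO without CTLA4-Ig, so each difference below was measured on top of CTLA4-Ig and of the allogeneic cells. Ages are not given in the sources used here.

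EPO is the hormone that drives the formation of red blood cells. Its receptor activates the kinase JAK2 and the transcription factor STAT5, and it is also found on immune cells, macrophages among them. CTLA4-Ig is a fusion protein that binds CD80 and CD86 on antigen-presenting cells and so blocks CD28 costimulation of T cells. CD11b is an integrin chain carried by monocytes, neutrophils, eosinophils, many macrophages, some dendritic cells and NK cells, so CD11b+ spleen cells are a mixture. In such a bulk sample, fewer cells of a type and less RNA per cell cannot be told apart.

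RNA was counted on a NanoString nCounter panel of myeloid genes, in which each mRNA molecule is counted by a colour-coded probe without amplification. Values are normalized log2 expression as deposited, a log2 fold change is the mean of the CTLA4-Ig/EPO mice minus the mean of the CTLA4-Ig mice, and values of single mice are given in the order of mouse 1 to 4. The total count per mouse ranged from 690326 to 912328 with CTLA4-Ig and from 655838 to 827739 with CTLA4-Ig/EPO. The median gene lay at 6.54 ± 0.09 with CTLA4-Ig and at 6.75 ± 0.06 with CTLA4-Ig/EPO (log2 level, SD, n = 4 mice each). Of the 173 genes with a mean count under 20 in these 8 mice, 9.25% passed the test, against 64.0% of the other 561, and the part of depth in this was not tested.

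Between the groups, 375 of 734 genes (51.1%) passed limma's test (Benjamini-Hochberg threshold 0.05), with a rise in 167 (22.8%) and a fall in 208 (28.3%). These shares are the background for every count of a gene list that follows. The split depended on the scaling, with 126 higher and 276 lower when each mouse was centred on its own median gene, and 189 higher and 151 lower when counts were scaled by their totals. These scalings moved the median log2 fold change of all genes (-0.07) by -0.20 and by 0.10. At unadjusted limma *P* values below 0.05, the threshold in the study's methods, 418 genes passed, 192 higher and 226 lower. The study's text instead reports more upregulated than downregulated genes for this comparison, and its volcano legend draws a line at an adjusted *P* value of 0.05. With the mice paired by number (a replicate block in the model), 400 genes passed, 182 higher and 218 lower, 372 of them among the 375. The values of the 2 groups did not overlap in 358 genes (48.8%). The plots of the study name 20 genes for this comparison, all of which passed the test here. The remaining 355 called genes, 160 higher and 195 lower, carry no name there, and they are the subject of what follows. Among them, 90 rose and 57 fell at least 2-fold, 29 rose and 2 fell at least 4-fold, and 10 rose and 1 fell at least 8-fold. Their median log2 fold change was 1.18 among the higher genes and -0.78 among the lower ones. In size, 15 of them rose more than *Retnla*, the largest rise among the genes named in the plots, and 16 fell more than the largest fall among those.

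**Figure D1:**
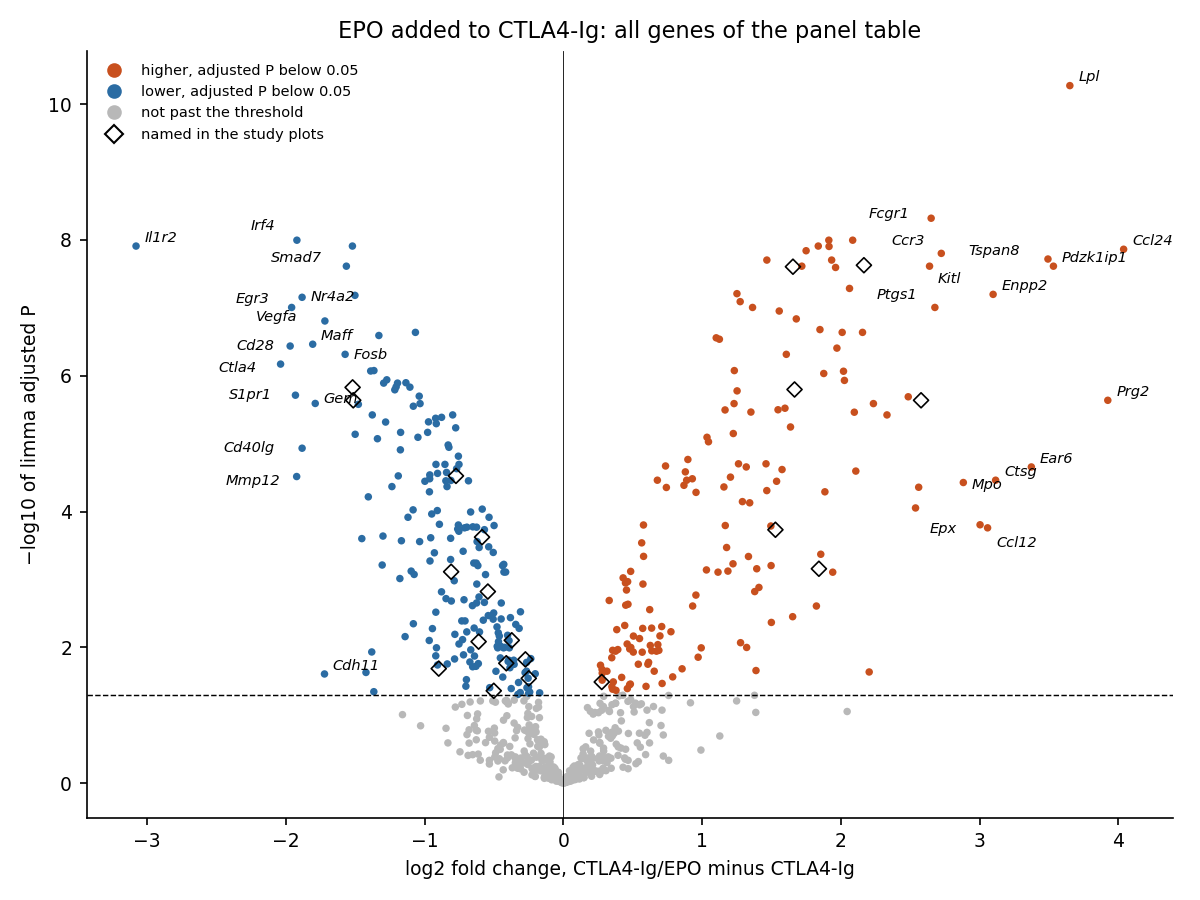
Each point is 1 of 734 genes, with the log2 fold change of CTLA4-Ig/EPO minus CTLA4-Ig mice (n = 4 each) on the x axis and −log10 of the limma adjusted *P* value on the y axis. Orange points are the higher and blue points the lower genes past the dashed line at 0.05, grey points did not pass it, and diamonds mark the 20 genes named in the study's plots. The labelled genes are the 15 largest rises and the 15 largest falls that carry no name in those plots, from *Ccl24* at 4.04 to *Il1r2* at -3.08.

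The largest rise was that of *Ccl24*, which encodes eotaxin-2, a chemokine that attracts eosinophils through the receptor CCR3. Its log2 level was 3.87, 4.25, 4.05 and 4.06 with CTLA4-Ig and 7.78, 8.16, 8.70 and 7.74 with CTLA4-Ig/EPO. All mice with EPO lay above all mice without it, by a log2 fold change of 4.04 (SE 0.25, limma adjusted *P* = 1.37e-08), a 16.4-fold higher level. The receptor gene *Ccr3* rose with it, from 7.15, 7.05, 7.51 and 7.12 to 9.82, 9.64, 10.46 and 9.81 on the log2 scale, with no overlap (log2 fold change 2.72, SE 0.18, adjusted *P* = 1.58e-08). *Ccr3* is also a gene of the eosinophil list. The summed level of that list, given below, was higher in the same mice, and its part in this rise was not tested. *Ccl12*, a ligand of CCR2 on monocytes, had a log2 fold change of 3.06 (SE 0.52, adjusted *P* = 0.000174) at low log2 levels, 3.29, 1.98, 2.05 and 1.42 with CTLA4-Ig and 5.51, 5.36, 5.73 and 4.36 with CTLA4-Ig/EPO. The platelet and macrophage chemokine gene *Pf4* rose by 1.29 (log2 fold change, adjusted *P* = 7.14e-05), again without overlap. *Cxcl13*, which guides B cells into follicles, rose by 1.39 (log2 fold change, adjusted *P* = 0.022) with overlapping groups, and this call was lost in 3 of the 8 fits that left out 1 mouse, under quantile normalization and with the replicate block in the 8 mice (adjusted *P* = 0.0826).

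Other chemokine ligands fell. *Ccl4*, which encodes an inflammatory CC chemokine, fell by 1.31 on the log2 scale (SE 0.26, adjusted *P* = 0.000613). *Ccl3* and *Ccl5*, which encode further CC chemokines of this kind, had log2 fold changes of -0.81 and -0.79, and for all 3 genes the 4 mice with EPO lay below the 4 without it. *Cxcl12*, the ligand of CXCR4 made by stromal cells, fell by 0.92 (log2 fold change, adjusted *P* = 0.0101), a call lost when counts were scaled by their totals. Over the list, 7 of 34 chemokine ligands were higher and 5 lower, with a median log2 fold change of -0.07, which to 2 decimals is also that of all 734 genes. After quantile normalization 4 ligands were higher, and scaled by total counts 3 were lower. Of 18 chemokine receptors, 8 were lower and 4 higher, with a median of -0.51, where 28.3% of all genes were lower and 22.8% higher. After centring on medians 2 receptors were higher. The lower ones included receptors found on B and T cells, *Ccr6* (-1.18, adjusted *P* = 1.23e-05), *Cxcr5* (-1.08, adjusted *P* = 2.81e-06) and *Ccr9* (-0.77, adjusted *P* = 2.34e-05). Besides *Ccr3*, the higher ones were *Xcr1* (0.69, adjusted *P* = 0.0111), *Cx3cr1* (0.57, adjusted *P* = 0.0118) and *Ccr2* (0.54, adjusted *P* = 0.0177), each by less than 2-fold. The call of *Xcr1* was lost after centring and after quantile normalization, and that of *Ccr2* after centring and in 4 of the 8 fits that left out 1 mouse.

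**Figure D2:**
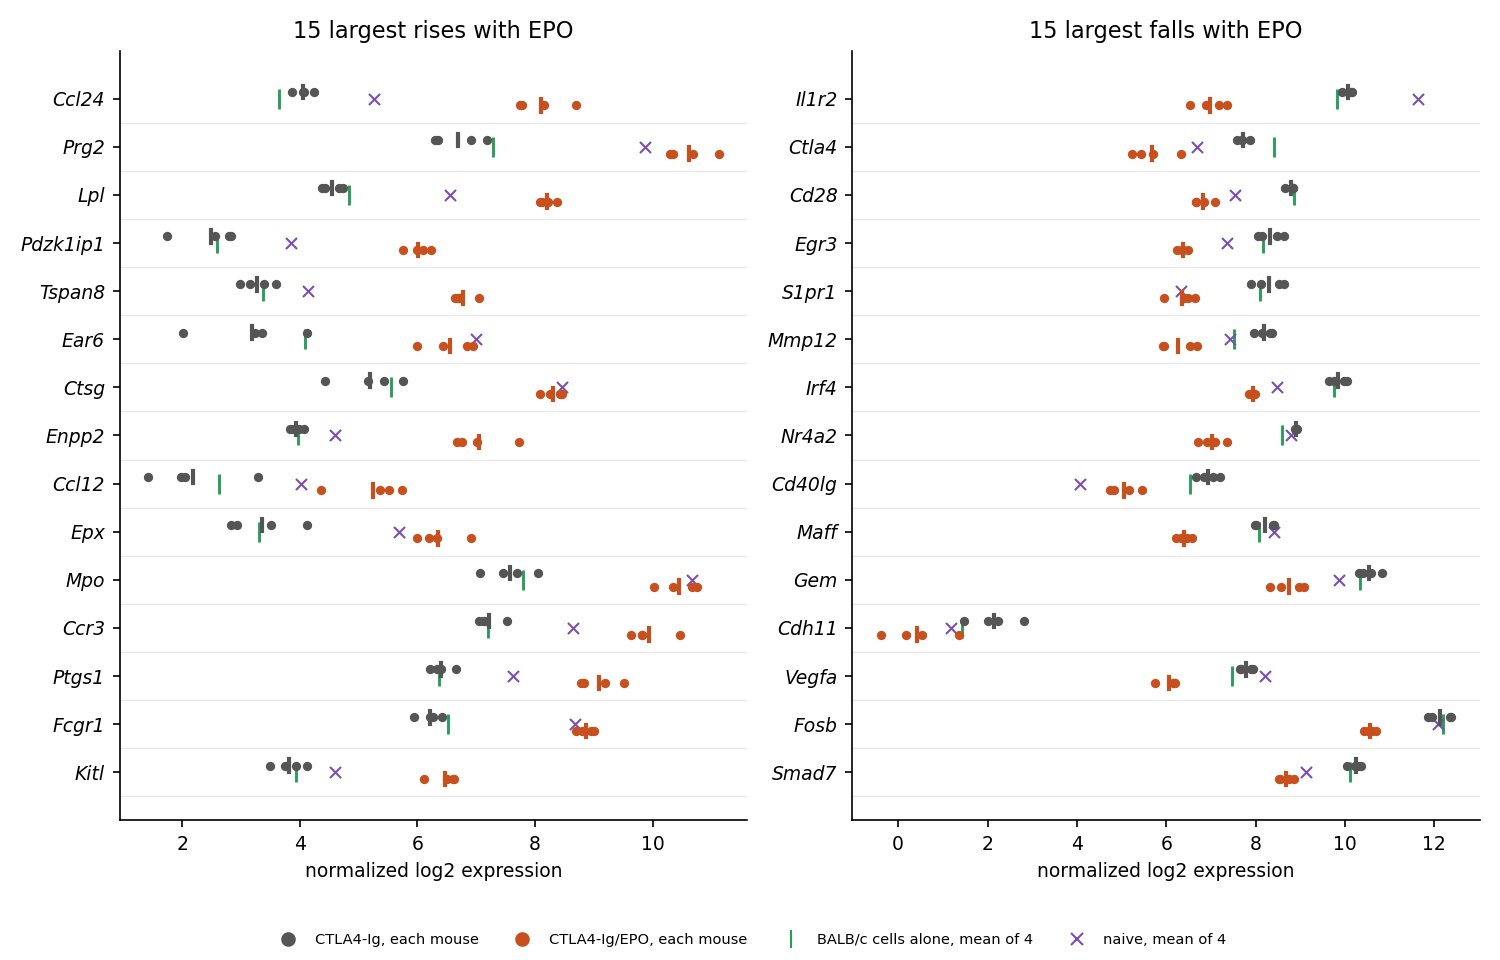
The x axes give normalized log2 expression for the 15 largest rises (left) and the 15 largest falls (right) among genes without a name in the study's plots. Grey dots are the 4 CTLA4-Ig mice and orange dots the 4 CTLA4-Ig/EPO mice, short bars through the dots their means, green bars the mean of the 4 mice given BALB/c cells alone, and crosses the mean of the 4 naive mice. For *Lpl*, *Ccl24*, *Tspan8* and *Enpp2* the orange dots lie above both the grey dots and the means of the other groups.

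The third largest rise, and the one with the smallest adjusted *P* value, was that of *Lpl*, lipoprotein lipase, which releases fatty acids from circulating triglycerides. Its log2 level was 4.43, 4.66, 4.73 and 4.37 with CTLA4-Ig and 8.09, 8.22, 8.36 and 8.12 with CTLA4-Ig/EPO. The groups were far apart and each was tight, with a log2 fold change of 3.65 (SE 0.13, adjusted *P* = 5.33e-11), or 12.6-fold. Of 10 genes of lipid handling measured, 7 were higher, 0 were lower and the median log2 fold change was 1.19, where 22.8% of all genes were higher. The nuclear receptor gene *Nr1h3*, which encodes LXRα, the sensor of oxysterols, rose from 6.92 ± 0.10 to 9.001 ± 0.18 (log2 level, SD, n = 4 each, adjusted *P* = 1.01e-08). *Pparg*, the nuclear receptor that responds to fatty acids, rose from 5.05 ± 0.41 to 7.07 ± 0.11 on the same scale (adjusted *P* = 8.58e-07). *Fabp4*, a fatty acid carrier and a known PPARγ target, rose from 6.12 ± 0.26 to 8.18 ± 0.14 (adjusted *P* = 5.17e-08). All 3 rises were about 4-fold, at 4.24-fold, 4.05-fold and 4.18-fold. The lysosomal lipase *Lipa* (1.12, adjusted *P* = 2.9e-07) and the lipoprotein component *Apoe* (1.10, adjusted *P* = 2.76e-07), given with log2 fold changes, also rose without overlap. *Cd36* and *Olr1*, which did not pass the test, had log2 fold changes of 0.03 and 0.62.

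The genes that make and break down prostaglandins and leukotrienes showed opposite changes in the 2 cyclooxygenases. *Ptgs1*, the constitutive enzyme COX-1, had log2 levels of 6.22, 6.33, 6.41 and 6.66 with CTLA4-Ig and 8.78, 8.83, 9.52 and 9.19 with CTLA4-Ig/EPO, a log2 fold change of 2.68 (SE 0.21, adjusted *P* = 9.86e-08). *Ptgs2*, the inducible enzyme COX-2, had 9.82, 9.97, 9.89 and 9.55 and 9.29, 9.17, 8.49 and 8.43, a log2 fold change of -0.96 (SE 0.19, adjusted *P* = 0.000534). Neither pair of groups overlapped, and the mice with EPO lay above all 12 other mice of the series for *Ptgs1* and below all of them for *Ptgs2*. *Hpgds*, the synthase of prostaglandin D2, and *Hpgd*, the dehydrogenase that inactivates prostaglandins, rose by 1.85 and 1.75 (log2 fold changes, adjusted *P* = 2.09e-07 and 1.44e-08). The lipoxygenase genes *Alox15* (1.38, adjusted *P* = 0.00151) and *Alox5* (1.03, adjusted *P* = 0.000724), the leukotriene B4 receptor *Ltb4r1* (0.95, adjusted *P* = 0.0017) and the formyl peptide receptors *Fpr2* (1.50, adjusted *P* = 0.000163) and *Fpr1* (1.32, adjusted *P* = 2.2e-05), also given by log2 fold change, rose too. Over the 17 members measured, 8 were higher and 1, *Ptgs2*, was lower, with a median log2 fold change of 0.39, where 22.8% of all genes were higher and 28.3% lower. The higher members include *Ltb4r1*, *Fpr1* and *Fpr2*, which encode receptors and not enzymes that make or break down these lipids. The summed levels of red pulp macrophage and eosinophil genes, given with those genes, were higher in the same mice, and their part in the changes of lipid and prostaglandin genes was not tested.

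**Figure D3:**
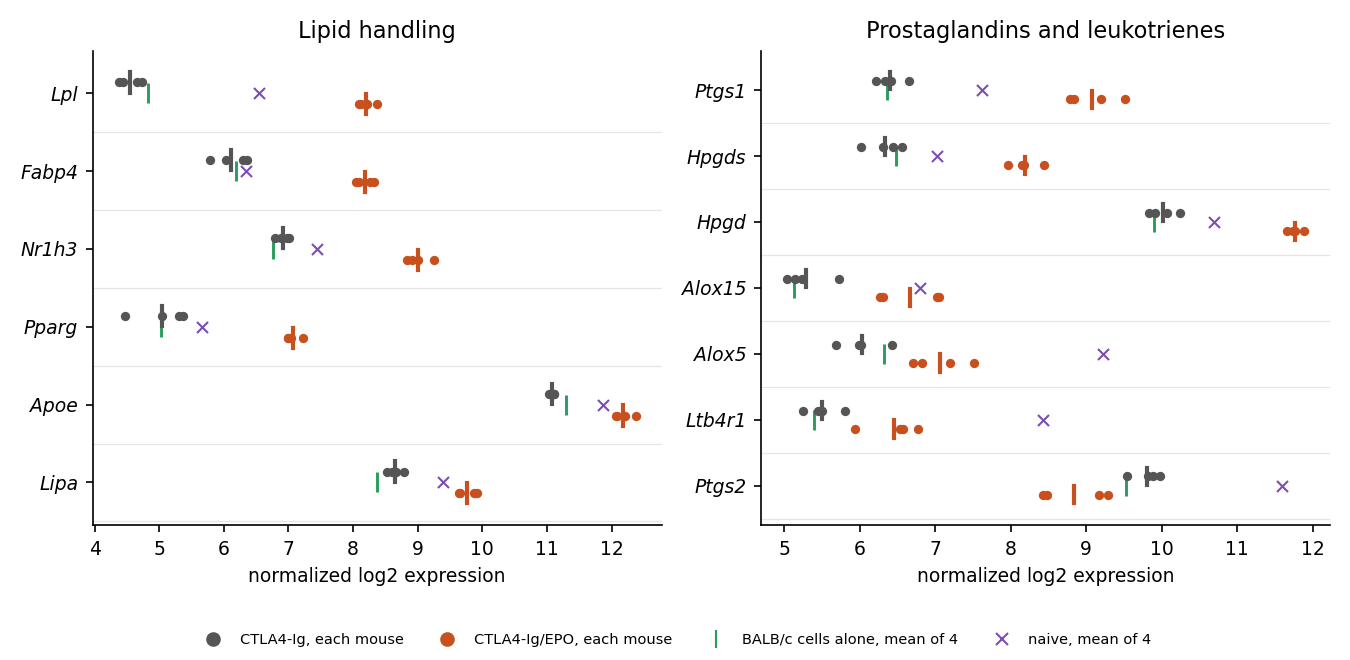
Normalized log2 expression (x axes) is shown for 6 of the 7 higher genes of the lipid list (left) and for 7 genes of prostaglandin and leukotriene metabolism (right), with grey dots for the 4 CTLA4-Ig mice and orange dots for the 4 CTLA4-Ig/EPO mice. Bars through the dots are means, green bars the mean of the 4 mice given BALB/c cells alone and crosses the naive mean. The orange dots lie right of the grey dots in every row but that of *Ptgs2*, where they lie left of them.

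Most complement genes and several Fc receptor genes of macrophages were higher with EPO. The 3 chains of C1q, the first component of the classical pathway and an opsonin of dying cells, had log2 fold changes of 2.01, 1.91 and 1.96 for *C1qa*, *C1qb* and *C1qc* (adjusted *P* = 2.3e-07, 1.25e-08 and 2.54e-08). *C1qa* stood at 9.44, 9.55, 9.90 and 9.69 with CTLA4-Ig and at 11.41, 11.31, 12.13 and 11.78 with CTLA4-Ig/EPO on the log2 scale, and the mice with EPO were above all 12 other mice for each of the 3 chains. The anaphylatoxin receptors *C3ar1* and *C5ar1* rose by 1.60 and 0.65 (log2 fold changes), and *C3* and *C4a* by 1.22 and 1.41. Whether the probe for *C4a* separates it from the near-identical *C4b* is not given in the sources used here. Thus 7 of 8 complement genes were higher and 0 lower (median log2 fold change 1.50, against 22.8% and 28.3% of all genes), and *Hc*, which encodes C5, did not pass the test (-0.34). The call of *C5ar1*, whose groups overlapped, was lost after centring and in 3 of the 8 fits without 1 mouse.

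*Fcgr1*, the high-affinity IgG receptor CD64 of macrophages and monocytes, had log2 levels of 6.42, 6.26, 6.21 and 5.94 and 8.79, 8.70, 9.01 and 8.95, a 6.28-fold rise (log2 fold change 2.65, SE 0.14, adjusted *P* = 4.78e-09). The activating receptors *Fcgr3* (1.55, adjusted *P* = 3.17e-06) and *Fcgr4* (1.20, adjusted *P* = 3.11e-05) rose by their log2 fold changes in brackets, and the inhibitory *Fcgr2b* did not pass the test (0.26, adjusted *P* = 0.195, or 0.0285 with the replicate block). The B cell IgE receptor *Fcer2a* was the 1 member of 7 that fell (-0.97, adjusted *P* = 5.12e-05), whereas the IgE receptor chains of basophils and mast cells, *Fcer1a* (1.33, adjusted *P* = 0.000459) and *Ms4a2* (1.28, adjusted *P* = 0.00854), rose. In all, 5 of 7 Fc receptor genes were higher and 1 lower, against 22.8% and 28.3% of all genes.

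Other surface and secreted products of tissue macrophages rose as well. *Siglec1*, or CD169, a sialic acid receptor of macrophages, had a log2 fold change of 2.49 (adjusted *P* = 2.04e-06), and *Vcam1*, an adhesion molecule of red pulp macrophages and stroma, one of 1.72 (adjusted *P* = 2.43e-08). *Cd68* (1.36, adjusted *P* = 9.86e-08), *Adgre1* (1.27, adjusted *P* = 8.1e-08) (F4/80) and the receptor of the growth factor CSF1, *Csf1r* (1.16, adjusted *P* = 3.19e-06), rose by the log2 fold changes shown. All 12 measured genes of a list of red pulp macrophage genes were higher, 3 of them among the genes named in the study's plots, and the median log2 fold change was 1.82. The summed normalized level of the list (linear scale) ran from 9695 to 10828 with CTLA4-Ig and from 29440 to 40614 with CTLA4-Ig/EPO, against 10942 to 13725 in naive mice. *Sirpa*, which receives the CD47 signal, rose by 1.47 (log2 fold change, adjusted *P* = 1.98e-08), and *Cd47* itself did not pass the test (0.17). Of 15 lectins and scavenger receptors, 7 were higher and 0 lower (median 0.46), among them *Cd68*, *Siglec1* and the galectin *Lgals3* (0.46, adjusted *P* = 0.0405), and 3 of these 7 are named in the study's plots. The call of *Lgals3* was lost in 6 of the 8 fits that left out 1 mouse and in the fit of the 8 mice. Of all genes, 22.8% were higher and 28.3% lower. The 1 gene measured of an iron and haem list, *Cd163*, is also named there. Of the marginal zone macrophage genes, *Nr1h3* rose and *Marco* did not pass the test (0.02, adjusted *P* = 0.961), and their summed level was 285 to 392 with CTLA4-Ig and 693 to 795 with CTLA4-Ig/EPO (linear scale). *Clec1b*, the receptor CLEC-2, rose without overlap (2.20, adjusted *P* = 0.023), a call lost without mouse 3 of the CTLA4-Ig/EPO group. Its SE was 0.75 in a model that includes naive mice, where its level varied (SD 2.25), and in a fit of the 8 mice alone its adjusted *P* was 1.36e-05.

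**Figure D4:**
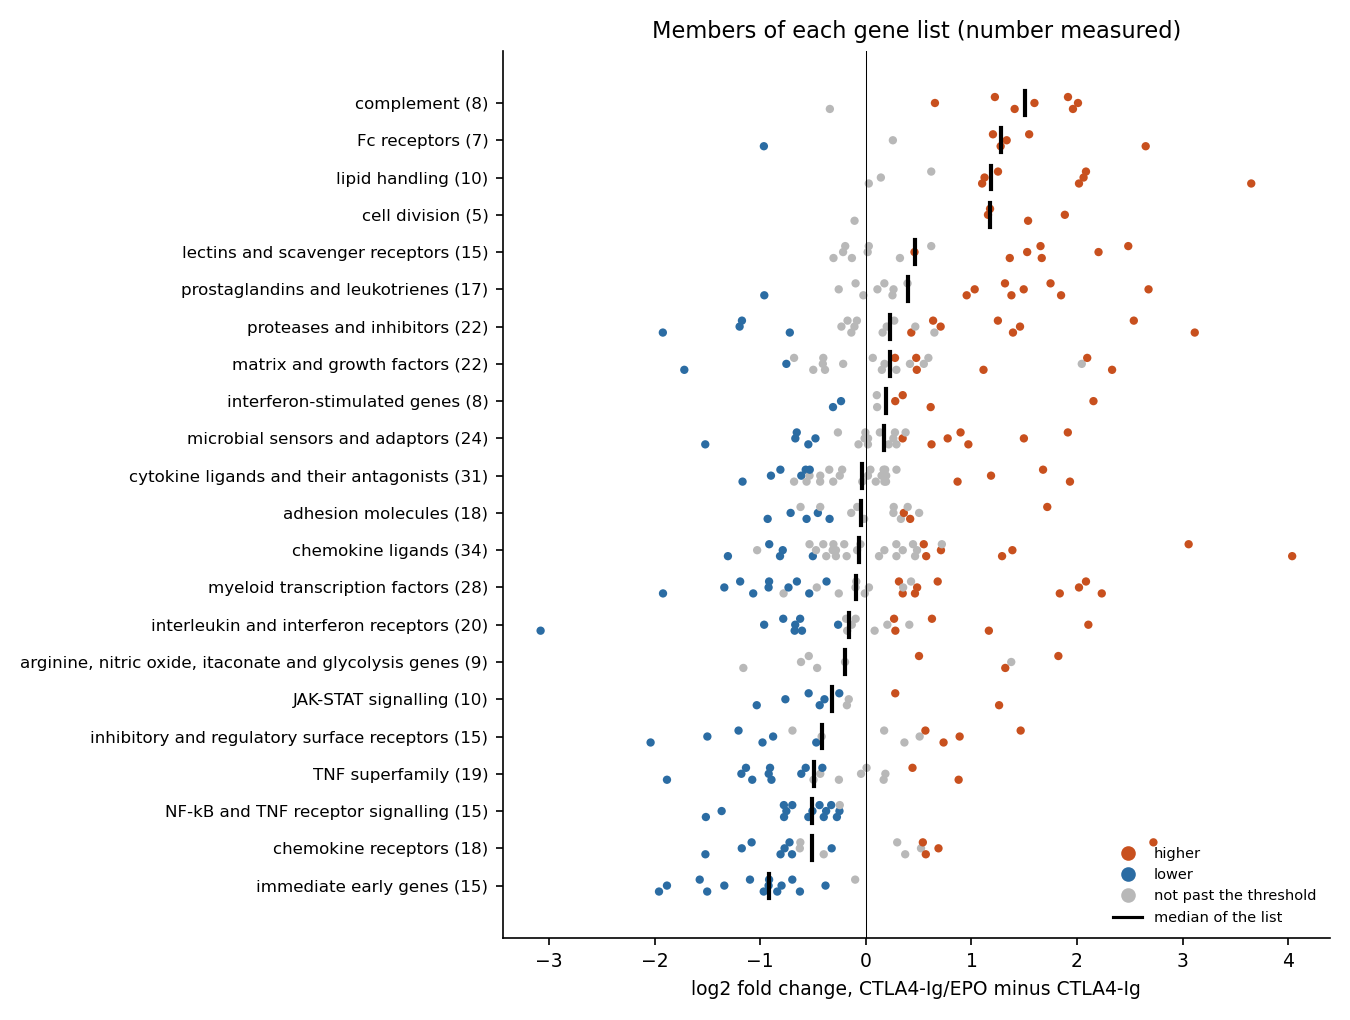
For each list of genes by function with at least 5 members measured (y axis, with that number; cell type lists are not drawn) the points give the log2 fold change of every member, CTLA4-Ig/EPO minus CTLA4-Ig mice, on the x axis. Orange and blue points passed limma's test at an adjusted *P* value below 0.05, grey points did not, and the black bar is the list's median, from 1.50 for complement to -0.92 for immediate early genes.

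Several of the largest rises belonged to genes of granulocytes. *Prg2*, the major basic protein of eosinophil granules, had log2 levels of 7.18, 6.92, 6.36 and 6.30 with CTLA4-Ig and 10.30, 11.12, 10.35 and 10.68 with CTLA4-Ig/EPO (log2 fold change 3.92, SE 0.42, adjusted *P* = 2.3e-06). The eosinophil genes *Ear6* and *Epx*, which encode a ribonuclease and the eosinophil peroxidase, rose by 3.37 and 3.00 (log2 fold changes, adjusted *P* = 2.2e-05 and 0.000157), and *Prg3* by 1.34. Of 7 eosinophil genes, 5 were higher, *Ccr3* among them, where 22.8% of all genes were higher and 28.3% lower. *Il5ra*, the receptor chain for IL-5, was lower (-0.78, adjusted *P* = 0.00643) and *Siglecf* did not pass the test (0.51, adjusted *P* = 0.0895), although it passed with the replicate block in the 8 mice. The list's summed level was 301 to 404 with CTLA4-Ig, 2395 to 3381 with CTLA4-Ig/EPO and 1223 to 2765 in naive mice (linear scale). *Ear6* and *Ear3* (1.88) are members of a family of near-identical genes, and whether their probes separate the copies is not given in the sources used here.

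The proteases and the peroxidase of primary granules, which granulocyte precursors make, rose in parallel. *Ctsg* (cathepsin G), *Mpo* (myeloperoxidase) and *Elane* (neutrophil elastase) had log2 fold changes of 3.12, 2.88 and 2.54 (adjusted *P* = 3.45e-05, 3.74e-05 and 8.85e-05). For *Mpo* the log2 levels were 8.06, 7.69, 7.46 and 7.07 and 10.02, 10.76, 10.34 and 10.67, so each mouse with EPO exceeded each mouse without it, while the naive mean was 10.66. The ficolin gene *Fcnb* of bone marrow myeloid cells rose by 2.56 (log2 fold change, adjusted *P* = 4.39e-05). In the list of granulocyte progenitor genes, 3 of 5 were higher, where 22.8% of all genes were higher and 28.3% lower. *Kit*, the stem cell factor receptor, was lower (-0.47, adjusted *P* = 0.0102, a call lost when counts were scaled by their totals), and *Cd34* did not pass the test (0.39). The list's summed level was 376 to 605 with CTLA4-Ig and 1818 to 2811 with CTLA4-Ig/EPO (linear scale).

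Of 9 genes of mature neutrophils, 4 were higher and 0 lower (median log2 fold change 0.71), beside 22.8% and 28.3% of all genes. *Camp* (cathelicidin), *S100a9* and *S100a8* (the chains of calprotectin) had log2 fold changes of 1.94, 1.65 and 1.50 (adjusted *P* = 0.000782, 0.00354 and 0.00429), and the gelatinase gene *Mmp9* had 0.71. The remaining 5 of 9 genes, *Ly6g* (0.92, adjusted *P* = 0.0655), *Mmp8* (0.65, adjusted *P* = 0.0743), *Csf3r* (0.41, adjusted *P* = 0.0917), *Cxcr1* (0.52, adjusted *P* = 0.517) and *Cxcr2* (0.30, adjusted *P* = 0.427), did not pass the test, whereas 7 of 9 were higher when counts were scaled by their totals or without mouse 2 of the CTLA4-Ig group. *Mmp8* passed with the replicate block in the 8 mice. The list's summed level, 13880 to 24229 with CTLA4-Ig and 37858 to 86828 with CTLA4-Ig/EPO, stayed below the 260081 to 764375 of naive mice (linear scale). Of 7 basophil and mast cell genes, 3 were higher (*Fcer1a*, *Ms4a2* and *Cpa3* (0.64, adjusted *P* = 0.0113)), the chymase gene *Cma1* (-0.72, adjusted *P* = 0.0129) was lower, and the summed levels of the groups overlapped at 358 to 564 and 446 to 555. *Il1rl1*, the IL-33 receptor of mast cells, basophils and some lymphocytes, rose by 2.11 (log2 fold change, adjusted *P* = 2.53e-05).

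*Gata1*, the transcription factor of red cell, megakaryocyte, eosinophil and mast cell lineages, was the 1 gene measured of the erythroid list. Its log2 level was 3.57, 4.12, 3.33 and 3.59 with CTLA4-Ig and 5.64, 5.78, 6.02 and 6.10 with CTLA4-Ig/EPO (log2 fold change 2.23, SE 0.24, adjusted *P* = 2.57e-06), and the naive mean was 6.17. *Kitl*, the stem cell factor, had 3.94, 4.12, 3.49 and 3.74 with CTLA4-Ig and 6.60, 6.12, 6.50 and 6.62 with CTLA4-Ig/EPO (log2 fold change 2.64, SE 0.18, adjusted *P* = 2.43e-08), with naive mice at a mean of 4.59. *Selp*, the other measured gene of megakaryocytes and platelets besides *Pf4*, did not pass the test (0.50, adjusted *P* = 0.0744, or 0.0368 with the replicate block). Globin genes, *Epor* and *Csf2rb* were not among the genes analysed here. Of 5 cell division genes, 4 were higher and 0 lower (median log2 fold change 1.18), against 22.8% and 28.3% of all genes. The higher ones were led by the survivin gene *Birc5* (1.88, adjusted *P* = 5.12e-05) and the cyclin *Ccnb2* (1.54, adjusted *P* = 3.58e-05), with the topoisomerase *Top2a* (1.18, adjusted *P* = 0.000338) and *Cdc20* (1.16, adjusted *P* = 4.34e-05) next. *Cdkn1a* did not pass the test (-0.11) but was lower after centring. *Kif20a* and *Mcm5*, genes of cytokinesis and replication that were picked after their values were seen, rose by 1.58 and 1.22 (log2 fold changes).

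Among the 10 JAK-STAT genes measured, *Socs2*, a feedback inhibitor known to be induced through STAT5, was the member that rose most. Its log2 level was 6.52, 6.22, 6.58 and 6.28 with CTLA4-Ig and 7.83, 7.57, 7.75 and 7.50 with CTLA4-Ig/EPO (log2 fold change 1.26, SE 0.17, adjusted *P* = 1.98e-05), and the mice with EPO lay above all 12 others. The other inhibitors moved down, *Socs1* by 0.54 and *Socs3* by 0.44 on the log2 scale (adjusted *P* = 0.00341 and 0.0274), and the call of *Socs3* was lost in 5 of 8 fits without 1 mouse. The calls of *Socs1*, *Socs3* and *Stat5b* were lost when counts were scaled by their totals. *Stat4*, which transmits IL-12, and *Jak3*, the kinase of the common γ chain receptors, fell by 1.03 and 0.76 (log2 fold changes, adjusted *P* = 2.57e-06 and 0.000181). *Stat5b* fell by 0.39 (adjusted *P* = 0.00796), and *Stat5a* (-0.16, adjusted *P* = 0.225) and *Stat6* (-0.18, adjusted *P* = 0.0757, or 0.0383 with the replicate block) did not pass the test. In all, 2 members were higher and 6 lower (22.8% and 28.3% of all genes), with a median log2 fold change of -0.32, and 2 of 10 were lower when counts were scaled by their totals. After centring, in the fit of the 8 mice, and without mouse 1 of the CTLA4-Ig group or mouse 4 of the CTLA4-Ig/EPO group, 1 member was higher.

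Promoter windows from RefSeq (GRCm38.p6), 250 bases before to 50 after each start site, could be matched for 121 of the 167 higher and 156 of the 208 lower genes, and were searched for the palindromic STAT core TTCNNNGAA, which reads alike on both strands. It occurred in 12 of the 121 higher genes (9.92%), in 18 of the 156 lower genes (11.5%), in 32 of 278 genes that did not pass the test (11.5%) and in 9.55% of all 27025 genes with a window. Among genes with a window, 1 of 8 JAK-STAT genes and 0 of 12 immediate early genes, described below, carried it. Differences between these shares were not tested. Matches are shown, with the core in capitals, for 3 genes with large changes and for the STAT feedback gene *Socs3*, whose fall was small, because they let the sequence be read beside the direction of change. The stretches are chr3:96294045-96294103 (minus strand, *Fcgr1*, higher), chr14:56102730-56102788 (minus strand, *Ctsg*, higher), chr1:40085957-40086015 (plus strand, *Il1r2*, lower) and chr11:117969487-117969545 (minus strand, *Socs3*, lower), all upstream of the start site.
Fcgr1: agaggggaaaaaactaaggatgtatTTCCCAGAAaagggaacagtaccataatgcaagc
Ctsg: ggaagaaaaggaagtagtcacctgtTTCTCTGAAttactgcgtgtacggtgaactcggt
Il1r2: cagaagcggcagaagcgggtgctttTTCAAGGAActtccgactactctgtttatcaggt
Socs3: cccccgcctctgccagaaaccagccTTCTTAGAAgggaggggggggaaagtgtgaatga
A match describes the letters in the window and does not show binding. The genes with a match include strong rises and strong falls.

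The immediate early genes, which cells switch on within minutes of a stimulus, were lower almost throughout. Of 15 measured, 14 were lower, 0 were higher and the median log2 fold change was -0.92, and in all 14 the 4 mice with EPO lay below the 4 without it. Of all genes 28.3% were lower and 48.8% did not overlap, in either direction. *Egr3*, a zinc finger factor induced by antigen receptor signals, had log2 levels of 8.14, 8.04, 8.48 and 8.63 and 6.49, 6.38, 6.24 and 6.36 (log2 fold change -1.96, SE 0.16, adjusted *P* = 9.86e-08). The orphan nuclear receptor *Nr4a2* had 8.92, 8.90, 8.91 and 8.89 and 7.37, 7.08, 6.72 and 6.90 (log2 fold change -1.88, SE 0.14, adjusted *P* = 6.99e-08), a change many times larger than the spread of either group. *Fosb*, a subunit of AP-1, fell by 1.57, the stress factor *Atf3* by 1.50 and *Nr4a1*, another orphan receptor, by 1.34 (log2 fold changes, adjusted *P* = 4.84e-07, 6.54e-08 and 8.46e-06). *Klf4* (-0.92, adjusted *P* = 4.23e-06), *Myc* (-0.92, adjusted *P* = 5.08e-06), *Jun* (-0.84, adjusted *P* = 4.29e-05) and *Btg2* (-0.80, adjusted *P* = 3.77e-06) fell by smaller amounts on the log2 scale. *Dusp1*, a phosphatase that switches off MAP kinases, fell by 0.38 (adjusted *P* = 0.00365), a call lost under quantile normalization and when counts were scaled by their totals. *Ier3* did not pass the test (-0.10, adjusted *P* = 0.399). The mice with EPO lay below all 12 other mice, naive mice included, for *Egr3*, *Nr4a1*, *Nr4a2*, *Fosb*, *Atf3*, *Fosl1*, *Klf4*, *Btg2*, *Dusp1* and *Nfkbia*, but not for *Jun*, *Myc*, *Egr2* or *Dusp2*. On this deposited scale the median gene lay at 7.15 to 7.33 in naive mice and at 6.70 to 6.84 with CTLA4-Ig/EPO. The placement after centring is given below for *Egr3* and *Nr4a2* only. *Maff* and *Gem*, a small Maf factor and a GTPase induced by the same kinds of stimulus, fell by 1.81 and 1.79 (log2 fold changes, adjusted *P* = 3.43e-07 and 2.56e-06).

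**Figure D5:**
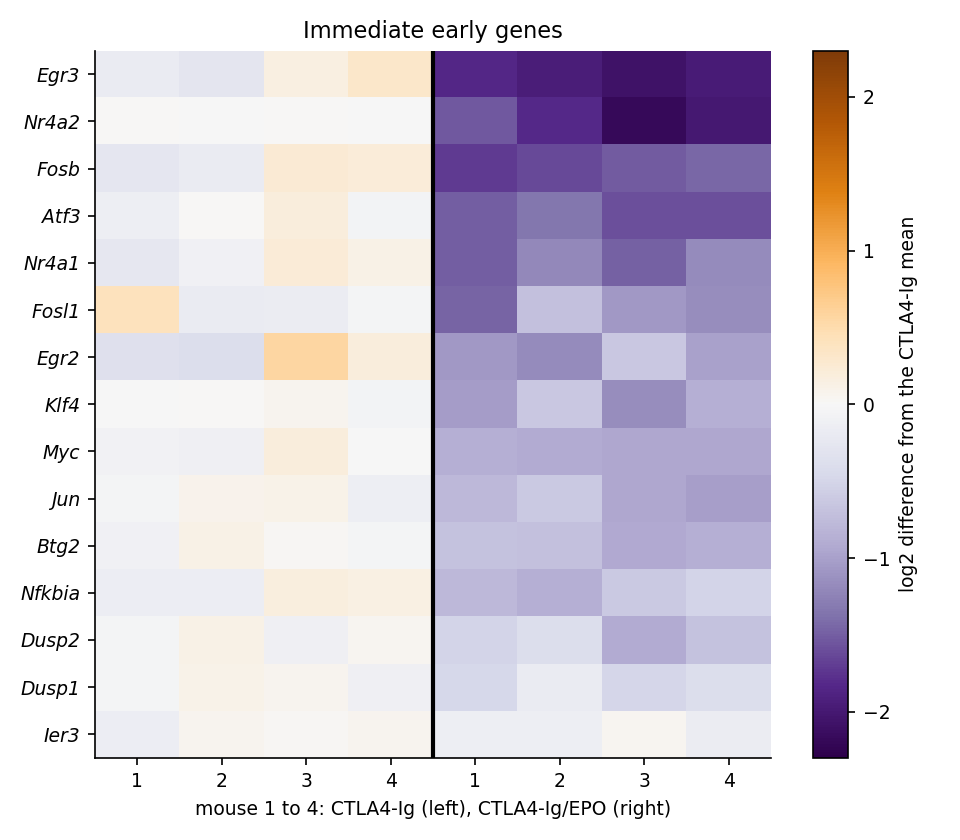
Rows are the 15 immediate early genes and columns the 4 CTLA4-Ig mice (left of the line) and the 4 CTLA4-Ig/EPO mice (right). Colour gives the log2 difference of each mouse from the mean of the CTLA4-Ig mice, from purple (lower) to orange (higher), and the columns on the right are purple in every row but *Ier3*.

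The cyclic AMP response element TGACGTCA, also a palindrome, was present in the windows of 2 of the 12 immediate early genes that had one, *Btg2* and *Dusp1*, compared with 6 of 156 lower genes (3.85%), 1 of 121 higher genes (0.826%), 8 of 278 genes that did not pass the test (2.88%) and 2.03% of all genes with a window. The 2 stretches are shown because both genes belong to the group that fell together, with the element in capitals, at chr1:134079289-134079346 (*Btg2*) and chr17:26508583-26508640 (*Dusp1*), both on the minus strand of GRCm38.p6.
Btg2: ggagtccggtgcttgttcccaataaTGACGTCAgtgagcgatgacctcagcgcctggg
Dusp1: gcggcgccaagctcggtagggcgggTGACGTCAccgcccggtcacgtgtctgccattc
With 2 matches in 12 windows, the counts are too small to be read as a property of the group.

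Genes of NF-kB and TNF receptor signalling were lower as well, 14 of 15 with 0 higher and a median log2 fold change of -0.51, and 9 of 15 when counts were scaled by their totals. Of these, 5 are named in the study's plots. Among the others, *Malt1*, the protease of the CARD-BCL10-MALT1 complex, fell most, from 10.57 ± 0.07 to 9.21 ± 0.25 (log2 level, SD, n = 4 each, adjusted *P* = 8.39e-07), and its partner *Bcl10* fell by 0.44 (log2 fold change, adjusted *P* = 0.000625). The ubiquitin ligases *Birc3* (-0.78, adjusted *P* = 5.85e-06), *Birc2* (-0.75, adjusted *P* = 2.02e-05) and *Traf6* (-0.51, adjusted *P* = 0.0004) fell on the log2 scale, as did the inhibitor *Nfkbia* (-0.70, adjusted *P* = 0.00592). *Nfkbie* did not pass the test (-0.25, adjusted *P* = 0.187). Of 19 genes of the TNF superfamily, 10 were lower and 2 higher (median -0.50), and of all genes 28.3% were lower and 22.8% higher. *Cd40lg*, the T cell ligand of CD40, fell by 1.88 (log2 fold change, adjusted *P* = 1.17e-05), followed by the OX40 ligand *Tnfsf4* (-1.18, adjusted *P* = 0.000969), the TWEAK receptor *Tnfrsf12a* (-1.14, adjusted *P* = 1.27e-06) and the 4-1BB ligand *Tnfsf9* (-1.08, adjusted *P* = 0.000843). *Tnfrsf14*, the receptor HVEM, and *Tnfrsf1b*, the TNF receptor TNFR2, rose by 0.88 and 0.44 (log2 fold changes, adjusted *P* = 2.6e-05 and 0.00476), and the call of *Tnfrsf1b* was lost after centring.

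The largest fall was that of *Il1r2*, the decoy receptor that captures IL-1. Its log2 level was 9.93, 10.16, 10.06 and 10.13 with CTLA4-Ig and 7.19, 7.36, 6.89 and 6.53 with CTLA4-Ig/EPO. The groups were separated by more than 2-fold at their nearest mice, and the log2 fold change was -3.08 (SE 0.19, adjusted *P* = 1.23e-08), an 8.46-fold lower level. The signalling receptor gene *Il1r1* did not pass the test (-0.13, adjusted *P* = 0.7). *Il1a* rose by 1.68 and *Il18* by 1.93 (log2 fold changes, adjusted *P* = 1.45e-07 and 1.98e-08), both cytokines of the IL-1 family, with the mice with EPO above all 12 others. *Il15* and *Il27* rose by 0.87 and 1.19 (adjusted *P* = 4.11e-05 and 0.000753). *Ifng*, the macrophage-activating cytokine of T and NK cells, stood at 6.85, 7.74, 7.33 and 7.36 with CTLA4-Ig and 6.15, 6.15, 6.10 and 6.20 with CTLA4-Ig/EPO, without overlap (log2 fold change -1.17, SE 0.21, adjusted *P* = 0.000269). *Ltb* fell by 0.57 (adjusted *P* = 0.000185), and *Il23a* by 0.53 (adjusted *P* = 0.0392), a call lost in 6 of 8 fits without 1 mouse. Over the lists, 4 of 31 cytokine ligands were higher and 6 lower, 3 of the latter named in the study's plots (median log2 fold change -0.03, against 22.8% higher and 28.3% lower over all genes), and 5 of 20 interleukin and interferon receptors were higher and 8 lower (median -0.16). After centring 2 of these receptors were higher, and 3 without mouse 4 of the CTLA4-Ig/EPO group. Among these receptors, *Il21r* (-0.96, adjusted *P* = 2.89e-05), *Ifngr1* (-0.67, adjusted *P* = 0.000101) and *Il4ra* (-0.62, adjusted *P* = 0.000277) fell and *Il3ra* (0.63, adjusted *P* = 0.00938) rose on the log2 scale, the call of *Il3ra* being lost after centring and after quantile normalization.

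Of 24 microbial sensors and adaptors 7 were higher and 5 lower, with a median log2 fold change of 0.17, shares near those of all genes (22.8% higher and 28.3% lower), and 3 were lower when counts were scaled by their totals. *Nlrp3*, the sensor of the inflammasome that processes IL-1β, fell from 9.35, 9.38, 9.54 and 9.33 to 7.88, 7.91, 7.84 and 7.88 on the log2 scale, with almost no spread within the group given EPO (log2 fold change -1.52, SE 0.09, adjusted *P* = 1.23e-08). *Tlr4*, the endotoxin receptor, rose from 6.62, 6.88, 6.85 and 6.63 to 8.49, 8.62, 8.81 and 8.71 (log2 fold change 1.91, SE 0.11, adjusted *P* = 1.01e-08). The lipid receptor *Trem2* (1.50, adjusted *P* = 0.000625) and the adaptor *Pycard* (0.97, adjusted *P* = 0.014) also rose on the log2 scale, and *Tlr5* (-0.67, adjusted *P* = 0.0109) and *Nod2* (-0.65, adjusted *P* = 0.0193) fell. Interferon-stimulated genes showed no common direction, with 4 of 8 higher, 2 lower and a median of 0.19, and with 1 of 8 higher after centring, without mouse 1 of the CTLA4-Ig group or without mouse 4 of the CTLA4-Ig/EPO group. In the fit of the 8 mice 2 were higher and 1 lower. The number of lower genes was 0 when counts were scaled by their totals and 1 without mouse 3 or 4 of the CTLA4-Ig group or mouse 1 or 2 of the CTLA4-Ig/EPO group. *Isg15*, a ubiquitin-like protein, rose by 2.16 (log2 fold change, adjusted *P* = 2.3e-07). Its protease *Usp18* (0.61, adjusted *P* = 0.0166), the factor *Irf7* (0.35, adjusted *P* = 0.038) and the immunoproteasome genes *Psmb9* (-0.31, adjusted *P* = 0.0463) and *Psmb8* (-0.24, adjusted *P* = 0.0146) had smaller log2 fold changes, and *Mx1* and *Mx2* did not pass the test (0.11 and 0.10). The calls of *Pycard*, *Tlr5*, *Usp18*, *Irf7*, *Psmb8* and *Psmb9* each changed under at least 1 of the scalings. Of the fits that left out 1 mouse, *Irf7* and *Psmb9* each lost their call in 4 of 8, *Usp18* in 3 of 8, and *Nod2* without mouse 3 of the CTLA4-Ig/EPO group.

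Among genes of matrix and growth factors, 6 of 22 were higher and 2 lower (median log2 fold change 0.23), against 22.8% and 28.3% of all genes, but 3 were higher and 4 lower after centring. Fibronectin, *Fn1*, rose by 2.33 and the growth factor *Igf1* by 2.10 (log2 fold changes, adjusted *P* = 3.77e-06 and 3.44e-06), with thrombomodulin, *Thbd* (1.11, adjusted *P* = 0.000781), next. *Vegfa*, which drives vessel growth, had log2 levels of 7.89, 7.95, 7.67 and 7.65 and 6.16, 6.19, 5.75 and 6.18 and fell by 1.72 (SE 0.14, adjusted *P* = 1.56e-07). *Fgf2* fell by 0.75 (log2 fold change, adjusted *P* = 0.00892). *Enpp2*, autotaxin, which makes lysophosphatidic acid, rose from 4.06, 3.83, 3.99 and 3.88 to 7.01, 6.75, 7.73 and 6.67 (log2 fold change 3.10, SE 0.23, adjusted *P* = 6.33e-08). *Smad7*, the inhibitor of TGF-β receptor signalling, fell by 1.56 (log2 fold change, adjusted *P* = 2.43e-08). Of the proteases, 8 of 22 were higher and 4 lower (median 0.23), beside the same shares of all genes. The lysosomal cathepsins *Ctsl* (1.46, adjusted *P* = 1.98e-05), *Ctsd* (1.25, adjusted *P* = 6.18e-08) and *Ctss* (0.43, adjusted *P* = 0.000948) rose on the log2 scale, and the macrophage elastase *Mmp12* (-1.92, adjusted *P* = 3.05e-05), the metalloproteinase *Adam19* (-1.20, adjusted *P* = 1.28e-06) and the urokinase receptor *Plaur* (-1.17, adjusted *P* = 6.82e-06) fell. *Tspan8* and *Pdzk1ip1*, genes of a tetraspanin and of a small membrane protein, rose by 3.49 and 3.53 (log2 fold changes, adjusted *P* = 1.91e-08 and 2.43e-08), both above all 12 other mice. *Cdh11*, a cadherin of stromal cells, fell by 1.72 (adjusted *P* = 0.0247) at counts that averaged 7 with CTLA4-Ig and 2.25 with CTLA4-Ig/EPO, and its call was lost in 3 of 8 fits without 1 mouse. Of the adhesion genes, 3 of 18 were higher (*Vcam1*, *Itga5* (0.42, adjusted *P* = 0.0277) and *Itgb1* (0.36, adjusted *P* = 0.0323)) and 5 lower, among them the integrin chains *Itgax* (-0.93, adjusted *P* = 0.000405), *Itgb7* (-0.71, adjusted *P* = 0.000174) and *Itga4* (-0.56, adjusted *P* = 0.000848) (log2 fold changes, median of the list -0.05). The calls of *Itga5* and *Itgb1* were lost in 6 and 4 of the 8 fits that left out 1 mouse, and 5 adhesion genes were higher with the replicate block. Scaled by total counts, and with the block in the 8 mice, 6 were higher. After centring 1 adhesion gene was higher and 8 were lower, and 1 was higher without mouse 4 of the CTLA4-Ig group or mouse 2 of the CTLA4-Ig/EPO group.

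A list of genes of arginine, nitric oxide, itaconate and glycolysis also held a sphingosine kinase and oxidase subunits, and of its 9 measured members 3 were higher and 0 lower (median log2 fold change -0.20). Among the higher ones were that kinase, *Sphk1* (1.82, adjusted *P* = 0.00246), and the oxidase subunit *Cybb* (0.50, adjusted *P* = 0.0117), neither of which belongs to the pathways the list is named for. After centring the call of *Cybb* was lost and 2 members were lower. With the replicate block 1 member was lower, as was 1 without mouse 1 of the CTLA4-Ig/EPO group. *Nos2* (-0.46, adjusted *P* = 0.437) and *Acod1* (-0.54, adjusted *P* = 0.172) did not pass the test. *S1pr1*, the receptor by which lymphocytes follow sphingosine-1-phosphate out of tissue, fell by 1.93 (log2 fold change, adjusted *P* = 1.93e-06). Of 28 myeloid transcription factors, 9 were higher and 10 lower (median -0.09), beside 22.8% and 28.3% of all genes. Besides the rises of *Gata1*, *Nr1h3* and *Pparg* and the fall of *Nr4a1*, given above, the changes named here were led by falls of *Irf4*, a factor of activated lymphocytes, plasma cells and some dendritic cells, by 1.92, of *Gata3* (-1.19, adjusted *P* = 2.98e-05) and of *Ets1* (-1.07, adjusted *P* = 2.3e-07) (log2 fold changes, adjusted *P* of *Irf4* = 1.01e-08). *Irf8*, chosen after its values were seen, did not overlap between the groups (9.998 ± 0.09 and 9.53 ± 0.16, log2 level, SD, n = 4 each). Its adjusted *P* was 0.809 in the fit of all 16 mice, where naive mice varied by an SD of 4.42, and 0.00752 in the fit of the 8 mice.

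Inhibitory and regulatory receptors were lower in 6 of 15 cases and higher in 4 (median log2 fold change -0.42), where 28.3% of all genes were lower and 22.8% higher. *Ctla4*, the natural counterpart of the drug on T cells, had log2 levels of 7.88, 7.69, 7.71 and 7.57 and 6.33, 5.70, 5.23 and 5.44 (log2 fold change -2.04, SE 0.19, adjusted *P* = 6.73e-07). The panel counts RNA, so the injected CTLA4-Ig protein is not part of this value. *Tigit* (-1.50, adjusted *P* = 7.28e-06) and the PD-L1 gene *Cd274* (-1.21, adjusted *P* = 1.45e-06) also fell, and *Lag3* (0.89, adjusted *P* = 3.45e-05) and the phosphatidylserine receptor *Timd4* (0.74, adjusted *P* = 2.13e-05) rose on the log2 scale. *Pdcd1* did not pass the test (-0.70, adjusted *P* = 0.193).

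Genes of other cell types in the CD11b+ fraction moved with EPO, and their counts stand against 28.3% of all genes lower and 22.8% higher. Of 7 T cell genes, 6 were lower (median log2 fold change -1.28), led by *Ctla4*, *Cd28* and *Cd40lg*, and their summed level was 1354 to 1462 with CTLA4-Ig, 409 to 611 with CTLA4-Ig/EPO and 530 to 764 in naive mice (linear scale). *Cd28*, the receptor whose ligands CTLA4-Ig covers, had log2 levels of 8.81, 8.84, 8.66 and 8.83 and 7.09, 6.84, 6.67 and 6.67 (log2 fold change -1.97, SE 0.18, adjusted *P* = 3.65e-07). All 3 B cell genes were lower (*Cxcr5*, *Fcer2a* and *Ms4a1* (-0.76, adjusted *P* = 0.000158)), with summed levels of 2836 to 3320 and 1430 to 2071. All 3 NK cell genes were lower too, *Gzma* (-0.85, adjusted *P* = 0.00191), *Nkg7* (-0.63, adjusted *P* = 0.019) and *Klrk1* (-0.61, adjusted *P* = 0.0173), with summed levels of 8291 to 12240 and 4929 to 6576 (linear scale). The calls of *Nkg7* and *Klrk1* were lost in 3 and 2 of the 8 fits that left out 1 mouse, and 1 of the 3 NK cell genes was lower when counts were scaled by their totals or without mouse 2 of the CTLA4-Ig group. The defining T cell chains CD3 and the B cell gene *Cd79a* were not among the genes analysed here. No measured member of these lists had 3 counts or fewer in all 8 mice. The sums of these lists moved in the same direction as *Ifng*, *Irf4*, *Ccr6*, *Stat4*, *Jak3* and most of the immediate early, NF-kB and TNF superfamily genes, and their part in those changes was not tested. *Cd40lg*, of the TNF superfamily, is itself part of the T cell sum. The class II genes *Cd74*, *H2-Aa* and *H2-Ab1*, which B cells, dendritic cells and macrophages share, fell by 1.05, 0.85 and 1.04 (log2 fold changes, adjusted *P* = 8.06e-06, 3.53e-05 and 2e-06), whereas the class I genes *H2-K1* and *H2-D1* fell by 0.43 and 0.27. The class I calls were lost when counts were scaled by their totals, and that of *Cd74* under quantile normalization. Whether the probes for the H2 genes separate near-identical members of that family is not given in the sources used here. Of the dendritic cell genes, *Flt3* (-0.85, adjusted *P* = 2.02e-05) and *Itgax*, which encodes CD11c, were lower (*Itgax* from 8.48 ± 0.26 to 7.55 ± 0.16, log2 level, SD, n = 4 each), *Xcr1* was higher, a call lost as given above, and *Batf3* (-0.09) and *Clec9a* (-0.22) did not pass the test. The list had a summed level of 1196 to 1398 with CTLA4-Ig and 729 to 844 with CTLA4-Ig/EPO. The 1 plasmacytoid dendritic cell gene, *Ccr9*, was lower. Of 3 classical monocyte genes 1 was higher, *Ccr2*, and 1 lower, with *Ly6c1* not past the threshold (-0.10). The lower call was lost when counts were scaled by their totals, and that of *Ccr2* as given above. Of 3 nonclassical ones, *Cx3cr1* was higher, *Nr4a1* lower and *Itgal* not past the threshold (-0.08). Their summed levels were 3585 to 3950 and 2997 to 3518 for the classical list, and 7580 to 9444 and 3955 to 5620 for the nonclassical list (CTLA4-Ig and CTLA4-Ig/EPO, linear scale). Only *Nr4a1*, also an immediate early gene, was called lower in the nonclassical list, so its lower sum is not shared by the list's other genes.

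The gene of the marker used for the selection was also read. *Itgam*, which encodes CD11b, did not pass the test between the groups, with log2 levels of 9.10, 9.28, 9.16 and 9.36 and 9.18, 9.77, 9.48 and 9.79 (log2 fold change 0.33, adjusted *P* = 0.0881). It was detected in all 8 mice, which cannot show how pure the selected cells were, because the series holds no unselected spleen cells.

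Some changes placed the mice with EPO outside the range of all 12 other mice, naive mice included. The level in the 4 mice with EPO exceeded that of every other mouse for 49 genes (6.68%) and was below that of every other mouse for 106 genes (14.4%). After each mouse was centred on its median gene as well, 44 genes remained above and 62 below. Above on both scales were *Ccl24*, *Lpl*, *Enpp2*, *Kitl*, *Pparg*, *Siglec1*, *Igf1*, *Il18* and *Socs2*, for example, and below on both scales *Il1r2*, *Egr3*, *Nr4a2*, *Nlrp3*, *Vegfa*, *Ptgs2* and *Ifng*. By contrast *Mpo*, *Ctsg*, *Elane*, *Epx* and *Gata1* rose without leaving the range of the other 12 mice on either scale, with means of 10.45 ± 0.34, 8.30 ± 0.17, 8.95 ± 0.30, 6.35 ± 0.39 and 5.88 ± 0.21 with EPO and 10.66, 8.46, 9.80, 5.69 and 6.17 in naive mice (log2 level, SD for n = 4 mice with EPO).

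The largest differences that did not pass the test belonged to genes at very low counts or with wide spread. *Cyr61* had log2 levels of -0.52, -0.34, -0.76 and 2.42 and 1.12, 2.93, 1.49 and 3.44 (log2 fold change 2.05, adjusted *P* = 0.088), *Ido2* a log2 fold change of 1.38 (adjusted *P* = 0.0509, or 0.0159 with the replicate block), *Tpsb2* one of 1.25 and *Nox1* one of -1.16. In each of these genes the groups overlapped, and the lowest count among the 8 mice was 1. With the replicate block in the 8 mice, but not in all 16, *Cyr61* passed too.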

How the data were processed

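NanoString nCounter counts from CD11b+ spleen cells of 16 mice were imported into limma and normalized by the authors, who deposited them as log2 values of 734 genes, 1 column per mouse. Each deposited log2 value was a whole count times 1 factor per mouse (100% of values, to within 0.001), so counts could be recovered up to a floor of 1; what the factor was computed from is not given in the sources used here. Samples were grouped by their titles, which match the treatment labels. No pair of mice in a group agreed within sampling noise (chi-square per degree of freedom at least 5.10). Gene symbols were matched to RefSeq (GRCm38.p6), 724 by current symbol, 9 by synonym and 1 not at all.

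limma 3.58.1 (R 4.3.3) was run on all 16 mice with a mean per group and without a filter. CTLA4-Ig/EPO minus CTLA4-Ig was tested two-sided, with Benjamini-Hochberg adjustment over 734 genes and a threshold of 0.05. On simulated data 84% of 200 changed genes were recovered (88.7% of those changed 2-fold or more, 74.6% of those changed 1.5-fold), and 1.18% of calls were false. The simulated noise was normal, independent between genes and mice, and of equal spread in all groups for a given gene. In the real mice the spread differed between groups for some genes, such as *Irf8*, and the rates apply to the simulated conditions only. Sample titles carry mouse numbers 1 to 4. Same-numbered CTLA4-Ig and CTLA4-Ig/EPO mice shared their deviations from the group means across genes (r from 0.143 to 0.183, 4 pairs; an unlike-numbered pair, CTLA4-Ig mouse 1 and CTLA4-Ig/EPO mouse 2, had 0.192), on which basis alone, with no source that ties the numbers, they were treated as pairs in the replicate block (400 genes called). The study's plots were read only for which 20 genes they name. Named were, without those 20, the 15 largest non-overlapping called rises and falls, the 3 largest called in each direction in each list, the 10 called genes with the highest mean, the 5 largest changes not called, and the members not called where a list had up to 5. A few genes that meet these rules are not reported here. Other genes were picked after their values were seen. The members and the 23 function and 16 cell type lists, written from general knowledge, were chosen with earlier results of these data known. The plasma cell list had no measured gene. Alternatives were other scalings (medians, quantiles, limma-voom on recovered counts scaled by totals), the 8 mice alone, no naive mice, a filter on the lowest 25% of genes, trended and robust moderation, unadjusted *P* values, the replicate block, and fits that each omitted 1 mouse. Tables and figures used Python 3.11.15, numpy 2.4.6, pandas 2.3.3 and matplotlib 3.10.9.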

Additional observations from a re-analysis of the deposited data

Results flagged for a closer look

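In 19 of 340 groups of 4 mice tested, for the named genes with and without EPO, 1 mouse stood apart from the other 3 by more than the limit of Dixon's test. Chance flags about 1 in 20 groups, so the number of these mice is near what chance gives. Values are normalized log2 levels of the mouse that stood apart.

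Among the CTLA4-Ig mice, mouse 1 was high for *Clec1b* (6.03). Mouse 2 was high for *Csf3r* (8.51), *Il23a* (3.98) and *Stat6* (10.003). Mouse 3 was high for *C1qb* (10.26) and low for *Cd28* (8.66), *Stat4* (7.90) and *Tigit* (6.44). Mouse 4 was high for *Cyr61* (2.42) and low for *Vcam1* (11.46).

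Among the CTLA4-Ig/EPO mice, mouse 1 was high for *Gata3* (6.35). Mouse 2 was high for *Tnfrsf12a* (5.93) and low for *Ctsl* (6.62). Mouse 3 was high for *Batf3* (6.74) and *Tspan8* (7.05) and low for *Vegfa* (5.75). Mouse 4 was high for *Adam19* (6.55) and *Usp18* (5.75) and low for *Fcgr3* (10.09).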

How the results depend on the processing

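Over 18 alternative settings the number of genes that passed stayed between 340 and 418, against 375. It was 368 with the 8 mice alone, 385 without naive mice, 402 after centring, 378 after quantile normalization, 340 when scaled by total counts, 379 with the filter, 376 with trended and robust moderation, 418 at unadjusted *P* values, and 344 to 370 when 1 mouse was left out. With the replicate block 400 passed, in all 16 mice as in the 8. In the fit of 16 mice with the block, *Adora3* (adjusted *P* = 0.0418) and *Pdcd1lg2* (0.0228) passed as well, and beside these and the values given for *Fcgr2b*, *Ido2*, *Selp* and *Stat6* it changed no other call of a named gene. With the block in the 8 mice, *Cxcl13* (adjusted *P* = 0.0826), *Irf7* (0.0688), *Psmb8* (0.0561), *Pycard* (0.0988) and *Usp18* (0.0696) lost their calls, and *Cyr61* (0.00898), *Fcgr2b* (0.0489), *Ido2* (0.00902), *Mmp8* (0.0104), *Pdcd1lg2* (0.0232), *Selp* (0.0466) and *Siglecf* (0.0443) passed. Of the 136 named genes that passed, 103 were tested and passed in every setting and 28 lost their call in at least 1. The other 5 passed wherever they were tested but were removed by the filter, which left 17 named genes untested. In 27 of 3043 combinations of a named gene and a setting the direction turned, always for genes that had not passed. After centring on medians the log2 fold change became -0.17 for *Cd36*, -0.029 for *Cd47*, -0.026 for *Hdc*, -0.19 for *Marco*, -0.096 for *Mx1* and -0.099 for *Mx2*. After quantile normalization it became -0.088 for *Hdc*, -0.18 for *Mx1* and -0.25 for *Mx2*. Scaled by total counts it became 0.0046 for *Batf3*, 0.0013 for *Ier3*, 0.019 for *Itgal* and 0.0011 for *Ly6c1*. Without 1 mouse it ranged from -0.20 to 0.018 for *Batf3*, from -0.11 to 0.15 for *Cd36*, from -0.32 to 0.97 for *Cxcr1*, from -0.20 to 0.048 for *Itgal*, from -0.18 to 0.24 for *Marco* and from -0.065 to 0.22 for *Mx2*. The cause of these turns was not tested. Of the 173 genes with a mean count under 20, 16 passed, and the part of depth in this was not tested.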
